A study of Mus musculus with 4 samples.

Results

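The 44 collagen genes of the mouse were followed across the cell classes of 4 single-nucleus RNA-seq libraries of liver. They are all genes of the count matrices whose symbol reads Col, a number, the letter a and a number, 44 of 32285 genes. The rule itself uses no measured value, although earlier results of these data were known when it was set. By the known structure of their proteins they fall into 11 fibrillar collagens, 8 basement membrane collagens (type IV and types XV and XVIII) and 25 other collagens. The livers came from male C57BL6/J mice, wild type in every group and with no treatment named in the labels, aged 2 months (2 libraries, called young here) or 30 months (2 libraries, called aged). The comparisons ask in which liver cells each collagen gene was read, and whether its level differed between the ages. The labels do not say whether each library holds 1 animal or several, so the p-values measure the spread between these libraries, which may be technical.

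Collagens are triple-helical proteins of the extracellular matrix. Fibrillar collagens such as types I, III and V build the cables that give a tissue its tensile strength. Type IV forms the flat network of basement membranes, types XV and XVIII sit at its edges, and the other collagens decorate fibrils (XII, XIV, XVI), form beaded filaments (VI) or short networks (VIII), or span the cell membrane (XIII, XXIII, XXV). In the liver, hepatic stellate cells and portal fibroblasts are the main makers of fibrillar collagen and of scar, endothelial cells contribute type IV, and hepatocytes are a known source of type XVIII, whose cleaved end is endostatin.

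The 6 type IV genes lie in head-to-head pairs, each pair starting at nearly 1 point and running in opposite directions. Their start regions are shown because the partners are set side by side in several results. In the annotation, Col4a1 (chr8:11198423-11312826, minus strand) and Col4a2 (chr8:11312805-11449287, plus strand) start 21 bases apart and overlap by 22 bases. Col4a4 (chr1:82448423-82586849, minus strand) and Col4a3 (chr1:82586921-82722059, plus strand) start 72 bases apart, and Col4a6 and Col4a5 on chromosome X start 1309 bases apart. The plus strand is given for the first 2 pairs, from RefSeq on GRCm38.p6. Capitals mark the overlap of Col4a1 and Col4a2 (chr8:11312801-11312830) and, in the second sequence, the bases between the starts of Col4a4 and Col4a3 (chr1:82586825-82586945).
Col4a1/Col4a2: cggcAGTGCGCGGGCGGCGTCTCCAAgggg
Col4a4/Col4a3: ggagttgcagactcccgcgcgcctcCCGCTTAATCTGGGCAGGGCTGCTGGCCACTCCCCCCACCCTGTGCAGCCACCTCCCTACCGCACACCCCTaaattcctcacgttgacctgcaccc

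RefSeq promoter windows, from 250 bases before to 50 after a gene's start, matched 35 of the 44 genes with 38 windows. The GC box letters GGGCGG, searched on both strands, were in 23 of these 38 windows (60.5%), against 35.7% of all 32851 windows of the same length. The letters TATAAA were in 5 collagen windows (13.2%, against 13.6% of all), among them that of Col3a1, and CCAAT was in 13 (34.2%, against 37.4%), among them those of Col1a2, Col4a1 and Col4a2. A match is a description of these letters only.

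The matrices held 43013 barcodes with 11799751 and 17809372 UMIs (counted RNA molecules) in the young libraries 1 and 2 and 38457709 and 54777101 in the aged libraries 1 and 2. After filtering, 33262 nuclei stayed: 1935, 12219, 7216 and 11892. The sample records give 10000 nuclei loaded per library, against 2666, 14718, 11362 and 14267 barcodes. In young 2, aged 1 and aged 2 the barcodes thus outnumbered the loaded nuclei. A kept barcode is called a nucleus here, although not each can be taken as a separate nucleus. Pairs of libraries shared between 8 and 67 barcodes. Nuclei were clustered without the collagen genes and 8 classes were named from marker genes. Hepatocyte-like, stellate/fibroblast-like, endothelial-like and macrophage-like nuclei numbered at least 20 in every library and were tested. T/NK-like, B-like, cholangiocyte-like and mesothelial-like nuclei are described only. A cluster of 484 nuclei that mixed endothelial and stellate genes stayed unnamed. Clusters with markers of 2 classes were left unnamed where their median UMI count was over 2 times that of all kept nuclei. The unnamed cluster held 1, 5, 290 and 188 nuclei in young 1, young 2, aged 1 and aged 2. Its UMIs in aged 1 and aged 2 were 1870396 and 1822362, beside 394588 and 1478582 in stellate/fibroblast-like nuclei. The part of its absence in the age comparisons was not tested. Levels per library are given as UMIs per 1000000 UMIs of that class in that library (CPM), and fold changes from the count model are scaled by TMM. For bulk sums over a class, fewer cells of a type within it and less RNA per cell cannot be told apart.

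The stellate/fibroblast-like class was not made up alike in the libraries. It numbered 382, 1496, 324 and 1247 nuclei in young 1, young 2, aged 1 and aged 2, in 2 clusters. Cluster 3 was found in all libraries (198, 574, 323 and 1229 nuclei). Cluster 4 was found nearly only in the young ones (184, 922, 1 and 18 nuclei), and held 90.9% and 81.1% of the class's UMIs there, against 0.149% and 2.28% in the aged libraries. In cluster 4 the summed level of 12 hepatocyte genes reached 95.3% and 73.5% of the level in hepatocyte-like nuclei of the same young library, and in cluster 3 it was 28.8%, 64.2%, 35.1% and 45.3%. The 9 stellate/fibroblast markers summed to 498 and 1183 CPM in cluster 4 of the young libraries, and to 6710, 5602, 6975 and 7324 CPM in cluster 3. Cluster 4 had a mean of 11149 and 1989 UMIs per nucleus in young 1 and young 2, against 1039 and 746 in cluster 3. It carries the class name by the marker rule alone, and whether its nuclei are stellate cells or fibroblasts was not tested. Over the whole class these markers stood at 1064, 2020, 6977 and 7191 CPM, with none at 0. The age comparison of this class was therefore run on all its nuclei, on nuclei under 50% of the hepatocyte level (188, 347, 294 and 850 nuclei), and on cluster 3 alone.

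All 44 genes had at least 3 UMIs over the named classes, and Col18a1 had the most, 31871. Of these, 25 reached a mean of 10 CPM in a tested class. The stellate/fibroblast-like class held the highest mean for 17 of the 25, endothelial-like nuclei for 4 (Col4a3, Col13a1, Col15a1, Col23a1), hepatocyte-like nuclei for 3 (Col5a3, Col18a1, Col25a1) and macrophage-like nuclei for 1, Col12a1. In the fit over classes, 15 of 26 tested collagens were higher in stellate/fibroblast-like than in hepatocyte-like nuclei, where 17.2% of all 12809 genes tested were, and 1 was lower, Col18a1, where 14.2% of all genes were. The median log2 difference was 3.05 over the collagens and -0.07 over all genes. Against endothelial-like nuclei, 10 of 26 were higher in the stellate/fibroblast-like class (5.53% of all genes) and 1 was lower, Col13a1 (2.65% of all genes). With cluster 3 alone standing for the class, the counts were 17 higher and 2 lower than in hepatocyte-like nuclei, and 17 higher and 2 lower than in endothelial-like nuclei, of 25 tested. In that fit 50.7% and 32.2% of all 12004 genes were called in either direction.

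**Figure D1:**
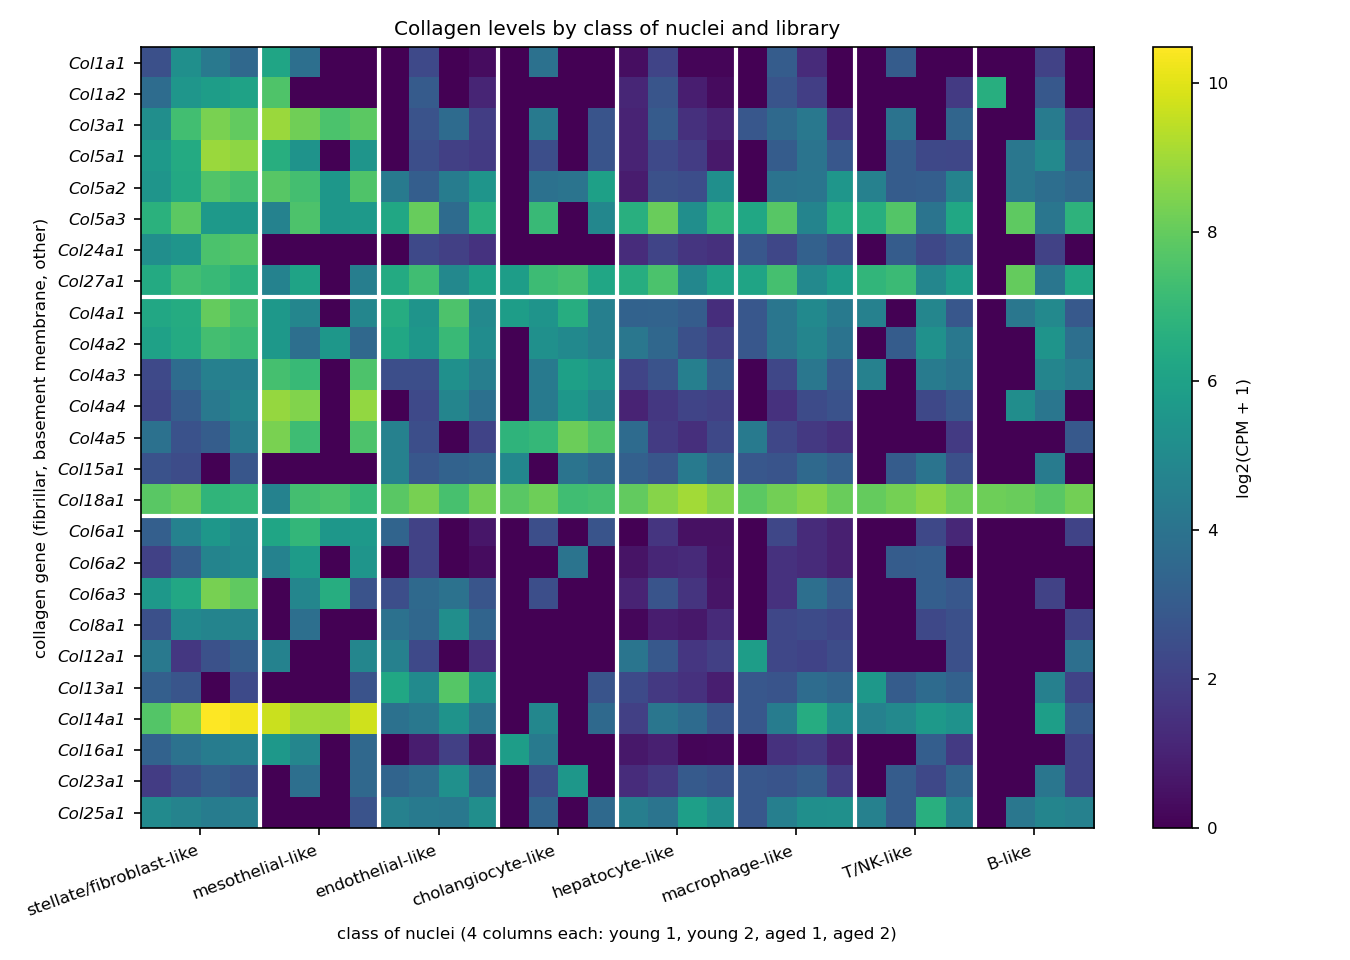
Heat map of the 25 collagen genes that reached a mean of 10 CPM in a tested class, as log2(CPM + 1), in 8 classes of nuclei with 4 columns each (young 1, young 2, aged 1, aged 2). Bright cells for Col5a1 and Col6a3 lie in the stellate/fibroblast-like columns, Col14a1 and Col3a1 are bright there and in mesothelial-like nuclei, Col18a1 is bright in all classes, and Col4a3 to Col4a5 are bright in mesothelial-like nuclei except in aged 1, which has 6 such nuclei.

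Of 8 tested fibrillar collagens, 6 were higher in stellate/fibroblast-like than in hepatocyte-like nuclei, and Col5a3 and Col27a1 were not called (edgeR adjusted p = 0.343 and 0.180). Col5a1, a chain of the type V collagen that nucleates fibrils, stood at 48.3 and 83.1 CPM in the young libraries and at 484 and 417 CPM in the aged ones. It was 116-fold higher than in hepatocyte-like nuclei, whose mean was 2.09 CPM (log2 difference 6.86, SE 0.67, edgeR adjusted p = 3.62e-06). Col3a1, the type III chain of reticular fibres, was at 35.4, 156, 327 and 252 CPM in young 1, young 2, aged 1 and aged 2, and was 78.7-fold higher than in hepatocyte-like nuclei (log2 6.30, SE 0.57, edgeR adjusted p = 1.85e-06). Every library of the class was above every hepatocyte-like library for both genes. Col24a1, a minor fibrillar collagen, was at 35.4, 43.3, 180 and 196 CPM, with 45.3-fold more than in hepatocyte-like nuclei (log2 5.50, SE 0.48, edgeR adjusted p = 1.36e-06). Its span holds another gene on the same strand, so reads could be split between them. These were the 3 largest differences of the fibrillar group.

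The 2 chains of type I collagen, the main protein of scar, were also read there. Col1a2 was at 11.96, 45.1, 55.8 and 64.9 CPM, against a mean of 2.00 CPM in hepatocyte-like nuclei, and was 32.6-fold higher (edgeR adjusted p = 0.000109). Col1a1 was at 4.87, 36.7, 17.7 and 10.8 CPM, from 11, 83, 7 and 16 UMIs, and was 28.9-fold higher (edgeR adjusted p = 2.29e-05). Col5a2, the partner chain of Col5a1 in type V, was at 43.4, 79.6, 198 and 160 CPM and was 15.8-fold higher (edgeR adjusted p = 1.19e-05). All 6 of these genes were higher than in endothelial-like nuclei too, by 7.91-fold (Col5a2) to 88.8-fold (Col5a1). The type XXVII gene Col27a1 was different: its 84.2, 158, 134 and 106 CPM in this class stood beside 91.6, 183, 27.7 and 63.4 CPM in hepatocyte-like nuclei, with no call between them.

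Among basement membrane genes, the chains of the common type IV trimer were shared by stellate/fibroblast-like and endothelial-like nuclei. Col4a1 was at 76.6, 85.7, 256 and 174 CPM in the first class, at 88.8, 42.4, 189 and 30.1 CPM in the second and at 8.79, 9.12, 7.26 and 1.57 CPM in hepatocyte-like nuclei. It was 21.9-fold and 9.44-fold higher than in hepatocyte-like nuclei (log2 4.45, SE 0.56, and 3.24, SE 0.57; edgeR adjusted p = 3.6e-05 and 0.00124). Its head-to-head partner Col4a2 was at 63.4, 84.4, 165 and 142 CPM in stellate/fibroblast-like nuclei and at 74.7, 46.3, 137 and 33.6 CPM in endothelial-like nuclei. It was 13.6-fold and 6.79-fold above hepatocyte-like nuclei (edgeR adjusted p = 0.000127 and 0.00381). In each class the libraries stood in the same order for the 2 partners, with aged 1 highest. Neither gene passed the test between the 2 classes.

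The chains of the rarer type IV trimer were low in the tested classes. Col4a4 was at 3.54, 7.51, 17.7 and 25.7 CPM in stellate/fibroblast-like nuclei and at 0, 3.92, 26.2 and 13.8 CPM in endothelial-like nuclei, 5.03-fold and 3.33-fold above hepatocyte-like nuclei (edgeR adjusted p = 0.000293 and 0.0118). Its partner Col4a3 was at 4.67, 4.71, 37.9 and 21.5 CPM in endothelial-like nuclei and was not called against hepatocyte-like nuclei. Col4a5 was at 14.2, 5.30, 7.60 and 18.9 CPM in stellate/fibroblast-like nuclei, 2.54-fold above hepatocyte-like nuclei (edgeR adjusted p = 0.0387). Col15a1, the type XV gene, was at 23.4, 6.27, 8.75 and 9.93 CPM in endothelial-like nuclei, from only 5, 8, 3 and 36 UMIs, and its libraries there overlapped those of hepatocyte-like nuclei.

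The other collagens of the stellate/fibroblast-like class were those of types VI, VIII, XIV and XVI. Col6a3, the large chain of the type VI beaded filament, was at 47.0, 76.5, 322 and 246 CPM and 80.2-fold above hepatocyte-like nuclei (log2 6.33, SE 0.69, edgeR adjusted p = 8.95e-06). Col14a1, which coats fibrils, was at 202, 360, 1434 and 1246 CPM and 76.8-fold above (log2 6.26, SE 0.52, edgeR adjusted p = 9.54e-07). Col16a1, also fibril-associated, was at 8.86, 14.6, 20.3 and 22.3 CPM and 44.5-fold above (log2 5.48, SE 0.62, edgeR adjusted p = 1.26e-05). These 3 had the largest differences in their group, and none of their libraries overlapped those of hepatocyte-like nuclei. The type VI partner Col6a1 was at 7.97, 24.3, 45.6 and 31.8 CPM and 44.1-fold above (edgeR adjusted p = 1.99e-05). Col6a2, which lies near Col6a1 on chromosome 10, was at 3.10, 7.51, 25.3 and 30.4 CPM and did not pass the count filter of the fit over classes. Col8a1, a chain of the type VIII network of vessel walls, was at 4.87, 30.5, 25.3 and 25.0 CPM here and at 14.01, 10.2, 35.0 and 9.37 CPM in endothelial-like nuclei, against a mean of 0.730 CPM in hepatocyte-like nuclei. It was 26.4-fold and 14.7-fold above these (edgeR adjusted p = 2.03e-06 and 5.6e-05).

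Endothelial-like nuclei were set apart by Col13a1, a collagen that spans the cell membrane. It was at 74.7, 31.4, 213 and 43.6 CPM in young 1, young 2, aged 1 and aged 2, against 7.97, 5.75, 0 and 4.06 CPM in stellate/fibroblast-like and 4.17, 2.31, 1.80 and 0.860 CPM in hepatocyte-like nuclei. It was 32.8-fold above hepatocyte-like nuclei (log2 5.03, SE 0.50, edgeR adjusted p = 1.44e-05) and its log2 difference between stellate/fibroblast-like and endothelial-like nuclei was -3.62 (SE 0.54, edgeR adjusted p = 0.000506). Col23a1, another membrane-spanning collagen, was at 9.34, 12.5, 37.9 and 9.10 CPM, 3.18-fold above hepatocyte-like nuclei (edgeR adjusted p = 0.00511). In all, 6 of 26 collagens were higher in endothelial-like than in hepatocyte-like nuclei, where 9.43% of all genes were, and none was lower (0.539% of all genes). They were Col4a1, Col4a2, Col4a4, Col8a1, Col13a1 and Col23a1, and no fibrillar collagen was among them. Without aged library 1 the count fell to 3. Aged 1 had the highest sum of the 11 endothelial markers (12600 CPM, against 2569 to 3139 in the others). As a mean over nuclei, it also had the least hepatocyte RNA in this class (40.3% of the hepatocyte level, against 69.6% to 82.7%). The sub-cluster led by Lrmda and Stab2 held 23, 36, 251 and 321 nuclei in young 1, young 2, aged 1 and aged 2. Another, led by Mup20 and Mup3, held 16, 563, 5 and 157, with hepatocyte RNA at 91.6% of the hepatocyte level. Further sub-clusters of 251, 266 and 171 nuclei also had hepatocyte genes among their leading genes. The part of this make-up in the values of the class was not tested.

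Hepatocyte-like nuclei held the highest mean of 3 collagens. Col18a1, the precursor of endostatin, was at 248, 377, 520 and 374 CPM in young 1, young 2, aged 1 and aged 2. Col5a3, the third chain of type V, was at 97.5, 273, 35.4 and 116 CPM, and Col25a1, a membrane-spanning collagen, at 21.3, 15.2, 59.7 and 36.3 CPM. None of the 3 was confined to this class. In T/NK-like nuclei, which are not known to make these collagens, Col18a1 stood at 104%, 82.2%, 77.9% and 77.8% of the hepatocyte-like level of the same library, and in macrophage-like nuclei at 92.7%, 79.6%, 72.4% and 73.5%. Col5a3 stood at 96.2%, 75.8%, 43.6% and 64.8% in T/NK-like nuclei and at 76.5%, 80.4%, 72.4% and 74.7% in macrophage-like nuclei. Col25a1 rested on 1, 1, 25 and 18 UMIs in T/NK-like nuclei, at 110%, 48.5%, 162% and 61.0% of the hepatocyte-like level. As a mean over nuclei, hepatocyte RNA was at 48.5%, 85.6%, 57.3% and 60.6% (T/NK-like) and at 77.2%, 87.2%, 44.2% and 68.6% (macrophage-like) of the hepatocyte level. The collagen levels are instead pooled over UMIs. Pooled that way, 8 hepatocyte markers summed to 14030, 14513, 13375 and 10432 CPM in T/NK-like nuclei. They summed to 16170, 14868, 12439 and 10744 CPM in macrophage-like and to 18512, 16959, 18166 and 14252 CPM in hepatocyte-like nuclei. The part of hepatocyte RNA in these collagen levels was not tested. Against hepatocyte-like nuclei, 0 of 26 collagens passed the edgeR test in macrophage-like nuclei, where 9.88% of all genes were higher. At an unadjusted p under 0.05 there were 7 collagens, with no share of all genes given at that p. Col14a1 was the nearest to a call (log2 1.72, SE 0.52, edgeR adjusted p = 0.0506). Macrophage-like nuclei gave the highest mean of Col12a1, at 56.0, 3.69, 3.33 and 4.41 CPM, but these were 9, 2, 7 and 5 UMIs and rested on young 1. Col12a1 also had its highest hepatocyte-like level in young 1 (15.8, 6.31, 2.14 and 2.95 CPM).

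Between the ages, the stellate/fibroblast-like class as a whole had more of 9 collagens and less of 2 in the aged libraries, but no collagen passed the test once nuclei rich in hepatocyte RNA, or cluster 4, were left out. Over all nuclei, 9 of 25 tested collagens were higher with age, where 8.22% of 12070 genes tested were, and 2 were lower, where 6.88% were. At an unadjusted p under 0.05 there were 14 of the 25 collagens and 32.9% of all genes. The median log2 difference, aged minus young, was 1.05 for the collagens and -0.09 for all genes. Under 50% of the hepatocyte RNA level, 0 of 15 tested collagens passed the edgeR test (0.0153% of 6534 genes did), with a median of 0.29. At an unadjusted p under 0.05 there were 2 collagens and 16.7% of all genes. In cluster 3, 0 of 18 passed and 0 of 6975 genes did, with 3 collagens and 791 genes at an unadjusted p under 0.05 and a collagen median of -0.34. Leaving out aged 1 lowered the calls over all nuclei of the class, among collagens and among all genes. A clustering that let collagens enter the variable genes also gave 0 of 26 (9 at an unadjusted p under 0.05, with no share of all genes given).

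The genes that rose over all nuclei were chains of types IV, V, VI, XIV and XXIV. Col5a1 rose from 48.3 and 83.1 to 484 and 417 CPM (log2 2.79, SE 0.34, edgeR adjusted p = 0.0132). In nuclei low in hepatocyte RNA it was at 266 and 114 against 563 and 474 CPM (log2 1.61, SE 0.47, edgeR adjusted p = 0.163), and in cluster 3 at 292 and 198 against 485 and 425 CPM (log2 1.00, SE 0.32, edgeR adjusted p = 0.344). Both aged libraries were above both young ones in each set of nuclei, but the difference became smaller at each step and lost its call. Col14a1 rose from 202 and 360 to 1434 and 1246 CPM (log2 2.27, SE 0.38, edgeR adjusted p = 0.0147). In nuclei low in hepatocyte RNA it was at 1217 and 564 against 1581 and 1386 CPM (log2 0.88, SE 0.52, edgeR adjusted p = 0.435). In cluster 3 it was at 1327 and 1025 against 1434 and 1269 CPM, and the ages overlapped.

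Col6a3 rose from 47.0 and 76.5 to 322 and 246 CPM (log2 2.20, SE 0.33, edgeR adjusted p = 0.0132) and was at 290 and 150 against 343 and 288 CPM in nuclei low in hepatocyte RNA and at 292 and 266 against 317 and 251 CPM in cluster 3. Col24a1 rose from 35.4 and 43.3 to 180 and 196 CPM (log2 2.25, SE 0.30, edgeR adjusted p = 0.0132) and was at 214 and 93.1 against 210 and 226 CPM in nuclei low in hepatocyte RNA and at 224 and 138 against 180 and 199 CPM in cluster 3. For both genes, and for Col6a2 (log2 2.42, SE 0.51, edgeR adjusted p = 0.023), the young values of cluster 3 lay near the aged ones. Col5a2 rose over all nuclei by a log2 difference of 1.55 (SE 0.34, edgeR adjusted p = 0.0247). In cluster 3 it was lower in the aged libraries, 253 and 238 against 198 and 164 CPM, with no call.

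The head-to-head genes Col4a1 and Col4a2 moved alike. Col4a1 rose over all nuclei from 76.6 and 85.7 to 256 and 174 CPM (log2 1.38, SE 0.32, edgeR adjusted p = 0.0283), and Col4a2 from 63.4 and 84.4 to 165 and 142 CPM (log2 1.05, SE 0.29, edgeR adjusted p = 0.0492). Their log2 differences in nuclei low in hepatocyte RNA were -0.15 and -0.13, with the ages overlapping. In cluster 3 both had the opposite sign too. Col4a1 was at 403 and 261 in the young against 256 and 178 CPM in the aged libraries (log2 -0.52, SE 0.35), and Col4a2 at 292 and 247 against 165 and 145 CPM (log2 -0.71, SE 0.29, unadjusted p = 0.0385, edgeR adjusted p = 0.416). Col4a4 rose from 3.54 and 7.51 to 17.7 and 25.7 CPM (log2 2.03, SE 0.53, edgeR adjusted p = 0.0396), and was at 19.0 and 20.7 against 18.6 and 31.3 CPM in nuclei low in hepatocyte RNA and at 19.4 and 25.7 against 17.8 and 26.3 CPM in cluster 3. Its partner Col4a3, at 3.99 and 11.9 against 22.8 and 22.3 CPM over all nuclei, had an edgeR adjusted p of 0.101.

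Both genes that fell had their highest mean in hepatocyte-like nuclei, as did Col25a1, which was not called here. Col5a3 fell from 103 and 228 to 48.2 and 46.7 CPM (log2 -1.78, SE 0.39, edgeR adjusted p = 0.0248), and Col18a1 from 224 and 273 to 117 and 120 CPM (log2 -1.07, SE 0.29, edgeR adjusted p = 0.0441). As a mean over nuclei, hepatocyte RNA in the class stood at 56.9% and 68.9% of the hepatocyte level in the young and at 28.5% and 43.9% in the aged libraries. In the pooled sums that were tested, 8 hepatocyte markers were at 16623 and 12194 against 6457 and 6985 CPM. In hepatocyte-like nuclei they were at 18512 and 16959 against 18166 and 14252 CPM. The part of hepatocyte RNA in these falls was not tested. With nuclei rich in hepatocyte RNA left out, Col5a3 was at 33.3 and 168 against 46.4 and 43.4 CPM and Col18a1 at 47.5 and 212 against 86.6 and 81.8 CPM, and in cluster 3 they were at 38.9 and 135 against 48.2 and 45.7 CPM and at 38.9 and 145 against 117 and 112 CPM. The ages overlapped in each of these. The 9 genes that rose moved with the summed markers of the class, which stood over all nuclei at 1064 and 2020 against 6977 and 7191 CPM.

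Neither type I chain was called between the ages. Over all nuclei Col1a1 was at 4.87 and 36.7 against 17.7 and 10.8 CPM, with the ages overlapping (log2 -0.59, SE 0.82). In nuclei low in hepatocyte RNA it was lower in both aged libraries, 47.5 and 67.3 against 18.6 and 14.1 CPM (log2 -1.76, SE 0.48, unadjusted p = 0.00577, edgeR adjusted p = 0.152). In cluster 3 it was at 48.6 and 135 against 15.2 and 11.1 CPM, from 10, 58, 6 and 16 UMIs (log2 -2.87, SE 0.56, unadjusted p = 0.000805, edgeR adjusted p = 0.267). This was the smallest unadjusted p of any collagen in both sets of nuclei, and it did not pass the adjustment. In every library but young 2, most Col1a1 UMIs of the class lay in sub-cluster 2, a small part described below. Col1a2 in cluster 3 was at 72.9 and 168 against 55.8 and 66.4 CPM, lower in both aged libraries but not called (log2 -0.93, SE 0.41). Col3a1 was at 258 and 516 against 327 and 257 CPM in cluster 3, and the ages overlapped.

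**Figure D2:**
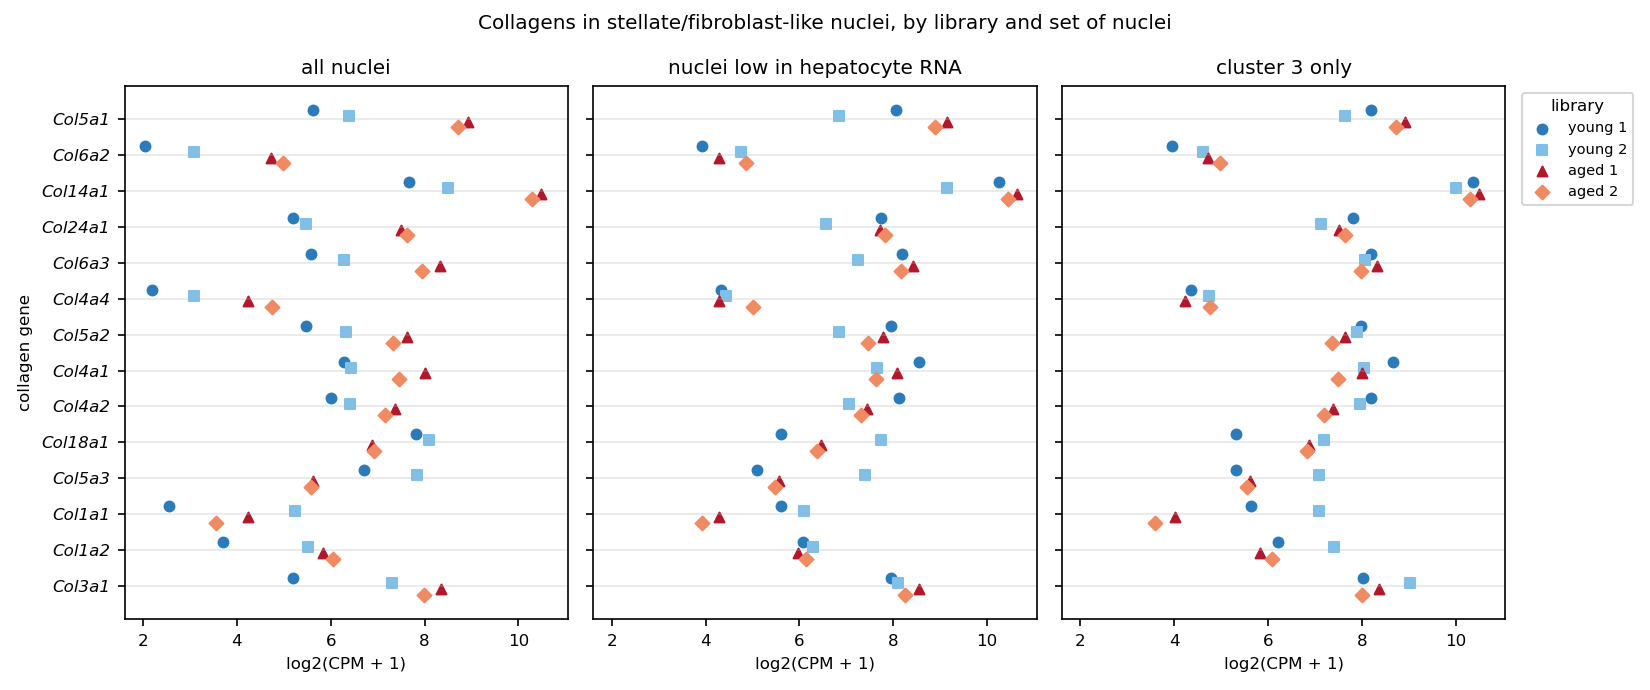
Levels of 14 collagen genes in stellate/fibroblast-like nuclei as log2(CPM + 1), one point per library (blue young, red aged), over all nuclei, nuclei low in hepatocyte RNA, and cluster 3 only. The young points of Col5a1, Col6a3, Col14a1 and Col24a1 lie far to the left of the aged points over all nuclei and move towards them in the other panels, while Col1a1 is lower in the aged libraries in the last 2 panels.

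Within the young libraries the 2 clusters differed in the same direction for most collagens. Of 25 collagens with at least 20 UMIs in the young libraries of this class, 18 were higher in cluster 3 than in cluster 4 in both libraries and 2 were higher in cluster 4 in both, Col5a3 and Col18a1. Of all 11947 genes with that many UMIs, 32.9% were higher in cluster 3 in both and 38.8% in cluster 4. Summed over all 44 genes, the level was 3911 and 4005 CPM in cluster 3 and 837 and 1373 CPM in cluster 4. The aged libraries had 3964 and 3490 CPM in cluster 3. Collagens took no part in the clustering, but genes that vary with them did, so this is a description with no test.

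**Figure D3:**
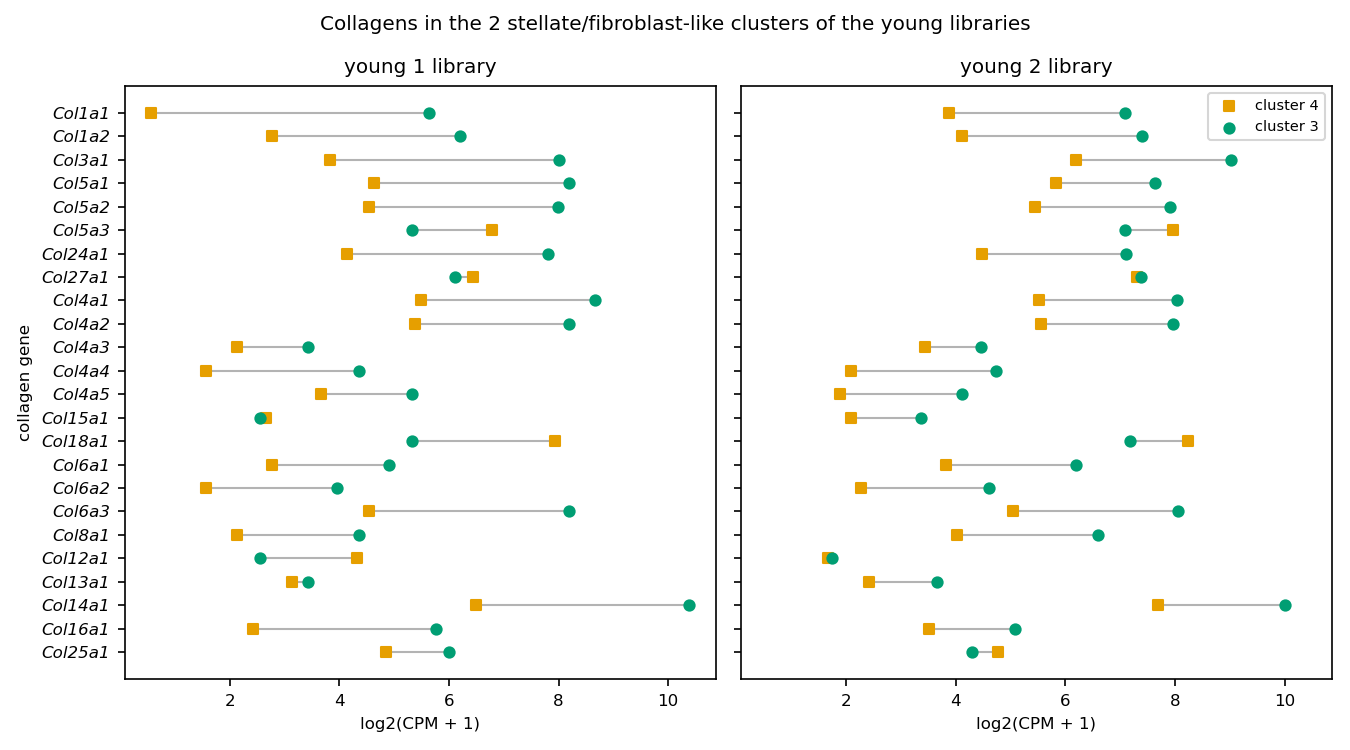
Levels of the named collagen genes with at least 20 UMIs as log2(CPM + 1) in cluster 3 (circles) and cluster 4 (squares) of the stellate/fibroblast-like class, one panel per young library. Most circles lie to the right of their squares, and Col5a3 and Col18a1 show the opposite order in both libraries.

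The genes that mature, cleave, bind and regulate collagen were counted in the same way. Of 71 tested genes in 5 lists, 24 were higher and 1 was lower with age over all nuclei, where 8.22% and 6.88% of all genes were, and 0 of 49 and 0 of 53 passed in nuclei low in hepatocyte RNA and in cluster 3 (17 and 9 at an unadjusted p under 0.05, as were 16.7% and 11.3% of all genes). Among maturation genes 5 of 22 rose, led by Adamts2, Adamts14 and P3h2, which trim procollagen ends or hydroxylate prolines. Adamts2 rose from 35.0 and 70.7 to 332 and 288 CPM (log2 2.57, SE 0.36, edgeR adjusted p = 0.0132), and was at 224 and 245 against 332 and 291 CPM in cluster 3. Adamts14 and P3h2 had log2 differences of 2.25 and 2.57 over all nuclei and of 0.30 and 0.86 in cluster 3.

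Of 7 tested genes for collagen breakdown and its inhibitors, 1 rose, a share near that of all genes. It was Timp3, an inhibitor of matrix proteases (log2 2.12, SE 0.48, edgeR adjusted p = 0.0268), with 1.51 in nuclei low in hepatocyte RNA and 0.95 in cluster 3, neither called. Timp2 and the protease gene Fap had log2 differences of 1.78 and 1.31 and were not called. Of 8 tested receptors, 4 rose. Mrc2, which takes up collagen for breakdown, went from 7.09 and 17.7 to 119 and 106 CPM (log2 3.19, SE 0.42, edgeR adjusted p = 0.0132). In cluster 3 it was at 48.6 and 53.7 against 119 and 109 CPM, higher in both aged libraries, with an unadjusted p of 0.00613 and an edgeR adjusted p of 0.305. The kinase receptor Ddr2 and the integrin chain Itga1 had log2 differences of 1.78 and 1.71 over all nuclei and of -0.15 and 0.12 in cluster 3.

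Of 18 tested genes of TGF-beta and PDGF signalling, which drive collagen output, 7 rose (8.22% of all genes did) and 1 fell (6.88% of all genes did). The 1 that fell was the ligand gene Pdgfc, at 88.2 and 45.1 against 7.60 and 7.44 CPM, and at 19.4 and 23.3 against 7.61 and 5.54 CPM in cluster 3, where it did not pass the count filter. The 3 with the smallest p were the receptors Pdgfra and Pdgfrb and the TGF-beta binding protein gene Ltbp1. Pdgfra was at 14.6 and 33.6 against 213 and 160 CPM (log2 2.96, SE 0.41, edgeR adjusted p = 0.0132), and at 82.6 and 93.4 against 213 and 164 CPM in cluster 3 (log2 1.17, SE 0.32, edgeR adjusted p = 0.305). Pdgfrb and Ltbp1 had log2 differences of 2.66 and 2.27 over all nuclei and of 0.87 and 0.31 in cluster 3. Pdgfra and Pdgfrb also served as markers of the class. Of 16 tested matrix partners 7 rose, led by the laminin chains Lamb1 and Lama1 and the nidogen gene Nid1, all of basement membranes, with log2 differences of 2.70, 2.24 and 1.86 over all nuclei and of 0.71, 0.37 and 0.00 in cluster 3.

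The collagens were also summed by group. With 2 libraries a side, the exact two-sided permutation test cannot give a p under 0.333. In stellate/fibroblast-like nuclei all collagens together were at 1223 and 1726 against 3955 and 3420 TMM-scaled CPM (2.50-fold higher in the aged libraries, exact permutation p = 0.333). In nuclei low in hepatocyte RNA they were at 3644 and 2346 against 4633 and 3953, 1.43-fold higher with no overlap. In cluster 3 they were at 3913 and 3764 against 4144 and 3552, a ratio of 1.00 with overlap. The basement membrane group was at 431 and 436 against 588 and 516 over all nuclei, and at 812 and 682 against 618 and 527 in cluster 3, where both aged libraries were the lower ones. Fibrillar collagens were 2.29-fold higher over all nuclei and 0.987 times the young level in cluster 3, and the other collagens 3.94-fold higher and 1.12-fold higher.

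**Figure D4:**
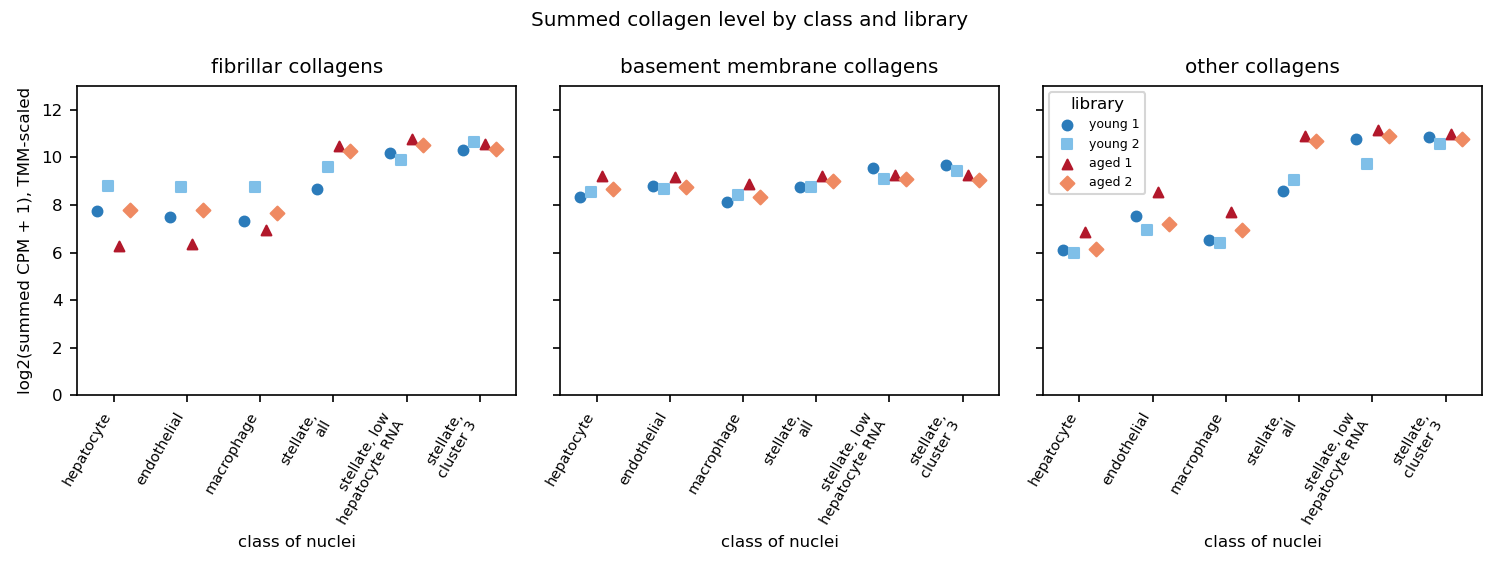
Summed level of fibrillar, basement membrane and other collagens as log2(summed CPM + 1), TMM-scaled, one point per library, in hepatocyte-like, endothelial-like and macrophage-like nuclei and in 3 sets of stellate/fibroblast-like nuclei. The young and aged points of the stellate/fibroblast-like class are apart over all its nuclei. In cluster 3 the fibrillar and other sums of the ages overlap, the aged basement membrane sums are below the young ones, and fibrillar sums of the other 3 classes are highest in young 2 and lowest in aged 1.

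In the other 3 tested classes the main edgeR fit, with its count filter and all 4 libraries, called no collagen between the ages. Without aged 2, edgeR called 4 of 10 tested collagens in endothelial-like nuclei (13.4% of all genes) and 3 of 8 in macrophage-like nuclei (4.50% of all genes). In hepatocyte-like nuclei 0 of 29 tested collagens passed the edgeR test, where 0.0387% of 15504 genes did (0.0322% higher and 0.00645% lower with age). DESeq2 called 4 of them and 4.88% of all genes, 11 had an unadjusted edgeR p under 0.05, as had 17.1% of all genes, and fits without young 1, young 2, aged 1 or aged 2 called 1, 5, 1 and 6 collagens (1.17%, 6.05%, 1.39% and 6.20% of all genes). Each cluster of this class held mostly nuclei of 1 library (cluster 0 of young 1, clusters 6 and 7 of young 2, clusters 18, 20 and 21 of aged 1, and clusters 11 and 16 of aged 2). Col27a1 was at 91.6 and 183 against 27.7 and 63.4 CPM, lower in both aged libraries (log2 -1.53, SE 0.47, edgeR adjusted p = 0.205). Col25a1 was at 21.3 and 15.2 against 59.7 and 36.3 CPM, higher in both (log2 1.40, SE 0.41, edgeR adjusted p = 0.197). Col5a2 was at 0.745, 5.01, 4.50 and 36.1 CPM, high in aged 2 alone, and aged 2 was also its highest library in endothelial-like (43.0 CPM) and macrophage-like (44.1 CPM) nuclei. The fibrillar sum in hepatocyte-like nuclei was 214 and 442 against 76.7 and 220 CPM, so that the ages overlapped (exact permutation p = 0.667), and it was made up mostly of Col5a3 and Col27a1.

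In endothelial-like nuclei 0 of 13 tested collagens passed the edgeR and the DESeq2 test, as did 0 of all 9526 genes in edgeR, with 2 collagens and 4.02% of genes at an unadjusted p under 0.05. The part of the uneven sub-clusters of this class in the age comparison was not tested. With nuclei rich in hepatocyte RNA left out, 1 of 4 tested collagens and 5.35% of genes had such a p, and 0 passed. The former 2 were the head-to-head genes Col4a3 (4.67 and 4.71 against 37.9 and 21.5 CPM, log2 2.63, SE 0.71) and Col4a4 (0 and 3.92 against 26.2 and 13.8 CPM, log2 2.61, SE 0.91), both with an edgeR adjusted p of 0.899. In macrophage-like nuclei 0 of 8 tested collagens passed in edgeR or DESeq2 (0.0614% of 9772 genes did in edgeR, 0.0307% higher and 0.0307% lower with age). At an unadjusted edgeR p under 0.05 there were 3 collagens and 15.7% of all genes. The 3 included Col27a1, at 68.4 and 166 against 29.5 and 53.8 CPM, the pattern of hepatocyte-like nuclei.

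The difference of the age effects between classes was tested as such. Against endothelial-like nuclei 0 of 26 collagens, and 0 of 12581 genes, differed in edgeR over all nuclei (1417 genes and 10 collagens had an unadjusted p under 0.05). Leaving out either aged library brought calls, among collagens and over all genes. With nuclei rich in hepatocyte RNA left out 1 of 17 collagens differed, Col13a1, with a log2 difference of age effects of -4.66 (SE 1.08, edgeR adjusted p = 0.00693), where 0.547% of 6944 genes had a call in that direction. There it was at 23.8 and 18.1 against 0 and 4.04 CPM in stellate/fibroblast-like nuclei, from 5, 7, 0 and 4 UMIs. In endothelial-like nuclei of that set it was at 31.2 and 35.6 against 253 and 102 CPM, from 1, 4, 56 and 32 UMIs. Against hepatocyte-like nuclei the age effect was more positive in the stellate/fibroblast-like class for 11 of 31 collagens (7.84% of 15031 genes) and more negative for 2 (10.6% of genes), over all nuclei. Leaving out aged 1 raised the calls, among collagens and over all genes. With all libraries, the largest called differences were Col1a2 (3.96, SE 0.59) and Col6a3 (3.79, SE 0.57), whose means in hepatocyte-like nuclei were only 2.00 and 2.29 CPM. Col1a2 itself was not called with age in the stellate/fibroblast-like class. In nuclei low in hepatocyte RNA 0 of 30 collagens differed (4 of 14904 genes did, and 9 collagens and 8.68% of all genes had an unadjusted p under 0.05).

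Hepatocyte-like nuclei could be ordered along the liver lobule, from the portal tract, where blood enters, to the central vein, by 12 periportal and 12 pericentral landmark genes that include no collagen. The nuclei of each library were cut into 3 equal parts by this score, and the parts at either end, 454, 2968, 1855 and 2750 nuclei each, were compared with the library as a block. Of 25 tested collagens 5 were higher at the periportal end, where 11.1% of 13813 genes were, and 2 at the pericentral end, where 11.4% were. Col25a1 was at 42.8, 25.5, 107 and 55.3 CPM at the periportal and at 5.43, 3.07, 10.2 and 7.38 CPM at the pericentral end (8.59-fold, log2 pericentral minus periportal -3.10, SE 0.12, edgeR adjusted p = 2e-07). It was higher at the periportal end in 4 of 4 libraries, and the 2 ends did not overlap. Col15a1 was at 10.8, 8.38, 31.0 and 14.1 against 4.97, 2.51, 7.38 and 3.65 CPM (3.66-fold, log2 -1.87, SE 0.17, edgeR adjusted p = 4.51e-05), again in 4 of 4 libraries.

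Col5a3 was higher at the periportal end in 4 of 4 libraries by a smaller amount, 132, 303, 50.8 and 138 against 43.9, 225, 25.4 and 84.4 CPM (1.80-fold, edgeR adjusted p = 0.00247). Col4a5 was at 18.1, 2.58, 2.45 and 5.69 against 6.33, 2.51, 1.56 and 1.66 CPM (2.34-fold, edgeR adjusted p = 0.0156), nearly equal in young 2. Col5a2 was at 1.21, 3.87, 5.43 and 59.8 against 0, 5.58, 1.42 and 9.53 CPM (4.32-fold, edgeR adjusted p = 0.00348), higher at the periportal end in 3 of 4 libraries and mainly in aged 2. At the pericentral end, Col12a1 was at 22.2, 11.2, 2.98 and 6.05 against 9.04, 4.19, 1.23 and 0.812 CPM (3.40-fold, edgeR adjusted p = 0.0018). Col23a1 was at 3.17, 3.35, 10.8 and 9.28 against 1.21, 0.967, 2.45 and 3.79 CPM (3.06-fold, edgeR adjusted p = 0.000914). Both were higher at the pericentral end in 4 of 4 libraries.

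Zonation differed with age for 1 of 25 collagens, Col27a1 (0.0217% of genes had a call in that direction). At the periportal end it was at 67.5, 157, 36.6 and 76.2 CPM and at the pericentral end at 99.0, 207, 20.6 and 42.0 CPM. Both young libraries were higher at the pericentral and both aged ones at the periportal end, a difference of -1.30 on the log2 scale (SE 0.15, edgeR adjusted p = 0.0392). The call was lost without young 1, without young 2 and in nuclei with at least 1000 UMIs.

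**Figure D5:**
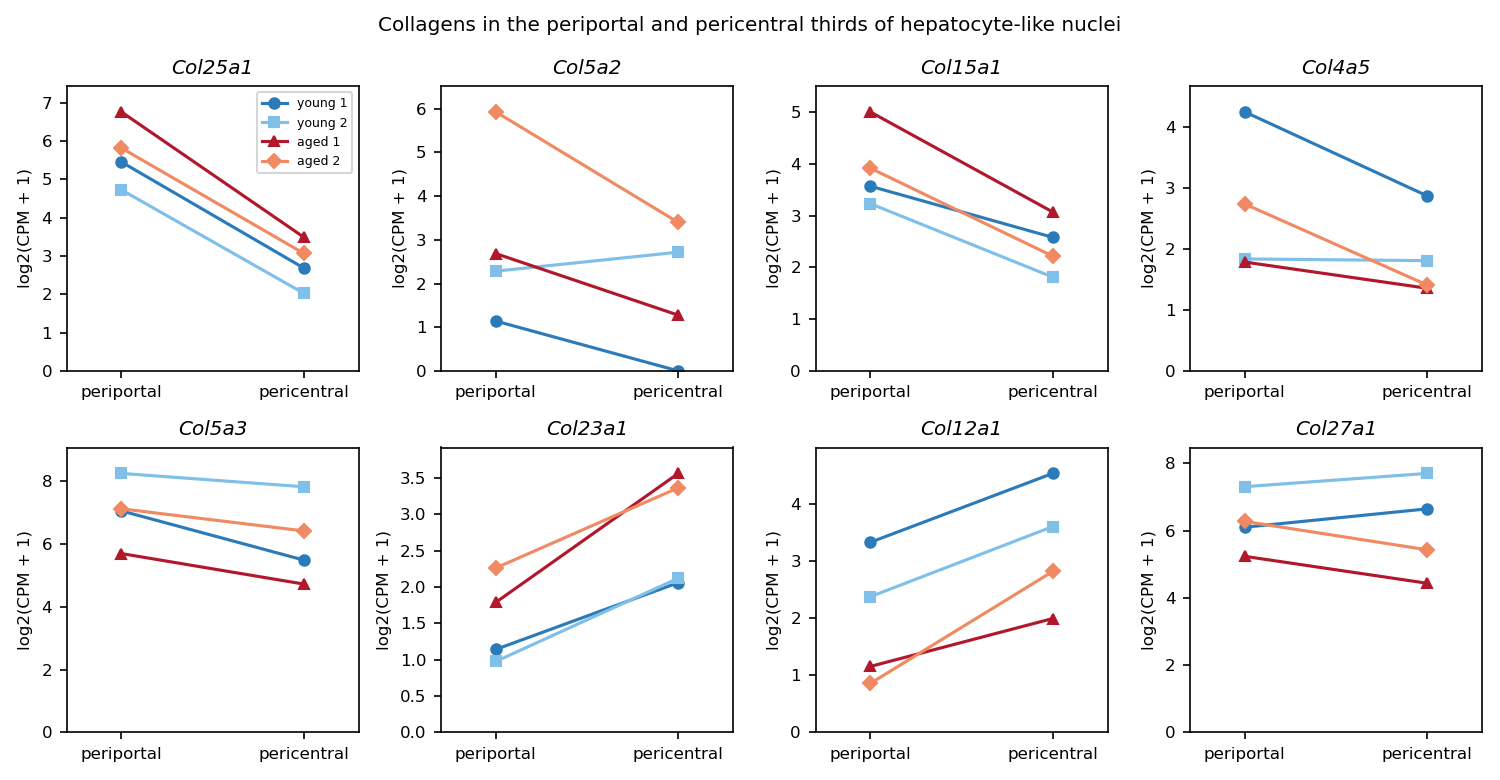
Levels of 8 collagen genes as log2(CPM + 1) at the periportal and the pericentral end of hepatocyte-like nuclei, one line per library (blue young, red aged). Lines fall from left to right for Col25a1 and Col15a1 in all 4 libraries, rise for Col12a1 and Col23a1, and cross between ages for Col27a1.

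The small classes are described only. Mesothelial-like nuclei (35, 85, 6 and 127 per library), cells of the liver's surface lining, had 22 collagens whose mean reached 10 CPM, against 21 in the stellate/fibroblast-like class. Among them were all 6 type IV genes. In aged 1, stellate/fibroblast-like nuclei had 394588 UMIs and mesothelial-like nuclei 22047, so the counts of 22 and 21 have unlike floors. A mean can pass 10 CPM on 1 UMI of aged 1 in mesothelial-like nuclei. Leaving aged 1 with its 6 nuclei aside, Col4a4 was at 454, 362 and 444 CPM there, Col4a3 at 167, 134 and 187 CPM, Col4a5 at 334, 148 and 187 CPM and Col4a6 at 501, 40.3 and 225 CPM, all above every library of the 4 tested classes. In these nuclei Col14a1 was at 812, 523, 499 and 851 CPM and Col3a1 at 477, 295, 181 and 230 CPM. Cholangiocyte-like nuclei (11, 232, 35 and 115), of the bile duct lining, held Col4a5 at 111, 126, 276 and 194 CPM and Col4a6 at 55.6, 14.04, 76.7 and 66.6 CPM, from 2 to 12 UMIs. Stellate/fibroblast markers summed to 477 to 859 CPM in mesothelial-like nuclei and to 27.8 to 173 CPM in cholangiocyte-like nuclei, and their part in these levels was not tested.

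Sub-clusters of the stellate/fibroblast-like class, also drawn without collagens, were uneven in collagen use. Sub-clusters 1 (237 nuclei) and 3 (857 nuclei) had hepatocyte genes in the lead, such as Cyp7b1 and Cps1 or Alas1 and Ces1d. As a mean over nuclei, their hepatocyte RNA was at 87.1% and 70.4% of the hepatocyte level. Their stellate/fibroblast markers summed to 719 and 1184 CPM. Sub-cluster 2 (18, 123, 51 and 172 nuclei), led by Alcam, Plxna4 and Lama2 and left unnamed, held Col6a3 at 905, 547, 788 and 630 CPM and Col27a1 at 258, 431, 211 and 279 CPM. Col4a3 was at 64.6, 105, 57.6 and 125 CPM in it, and Col4a4 at 258, 105, 96.0 and 154 CPM, from 1 to 32 UMIs. Each of these 4 genes was higher in it than in any other sub-cluster of the same library. Col1a1 in it was at 646, 407, 76.8 and 48.1 CPM, from 10, 35, 4 and 10 UMIs. Pooled over libraries, mesothelial markers summed to 429 CPM in sub-cluster 2 (9.11 to 45.8 in the others) and portal fibroblast markers to 185 CPM (10.4 to 34.7). Endothelial markers summed to 753 CPM (279 to 660) and stellate/fibroblast markers to 5152 CPM (719 to 8405). The part of such cells or RNA in these collagen levels was not tested. In endothelial-like nuclei the sub-cluster led by Lrmda and Stab2 (631 nuclei) held Col13a1 at 267, 141, 240 and 170 CPM, the highest of its library in all but aged 1, where another sub-cluster stood at 419 CPM from 2 UMIs. That led by Mecom and Cdh13 (194 nuclei) held Col8a1 at 107, 108, 98.3 and 114 CPM, the highest in all but aged 1, where another stood at 210 CPM from 1 UMI. A sub-cluster of 20 nuclei with Mmrn1 among its leading genes, a gene of lymphatic vessels, held Col23a1 at 943 CPM from 20 UMIs.

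Per nucleus, thinned to 500 UMIs each, a collagen UMI was found in 62.0% and 64.0% of young and 88.0% and 82.8% of aged stellate/fibroblast-like nuclei. The shares before thinning were 95.5%, 85.9%, 96.9% and 94.2%, at median depths of 1698, 863, 1007 and 986 UMIs. All stellate/fibroblast-like shares given here are over the whole class, cluster 4 included. That cluster held 184 and 922 young nuclei, but 1 and 18 aged ones. In the young libraries its summed collagen level was 837 and 1373 CPM, against 3911 and 4005 CPM in cluster 3. The part of cluster 4 in the shares by age was not tested. In T/NK-like nuclei, given for comparison, the thinned shares were 33.3%, 34.6%, 29.0% and 21.8%, at median depths of 1671, 1065, 1041 and 998 UMIs, and in hepatocyte-like nuclei they were 25.8%, 39.6%, 33.8% and 30.8%. For fibrillar collagens alone the stellate/fibroblast-like shares were 29.6%, 36.9%, 50.9% and 48.2%, beside 13.3%, 16.3%, 0% and 6.34% in T/NK-like and 11.2%, 22.4%, 4.20% and 11.02% in hepatocyte-like nuclei. The 0% is of 93 nuclei, and its exact binomial 95% interval reaches 3.89%. Basement membrane collagens did not separate the classes this way: their shares were 22.3% to 25.6% in stellate/fibroblast-like and 14.6% to 26.9% in hepatocyte-like nuclei.

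At the other end, 19 collagens stayed under a mean of 10 CPM in every tested class. Col2a1 and Col9a1, of cartilage, had 3 UMIs each over all named classes, Col9a2 had 7 and Col6a5 had 9, too few for any statement on where they were read. Col20a1 and Col10a1 were among the highest of the 19 in hepatocyte-like nuclei, at 9.83, 5.61, 12.04 and 5.56 CPM and at 0.149, 2.81, 10.3 and 5.74 CPM. Of the 44 genes, 15 overlap another gene of the matrix, including Col18a1 (Slc19a1, opposite strand), Col10a1 (Nt5dc1, opposite strand) and Col20a1 (another gene on the same strand). Nuclear RNA holds introns, and how the counting treated introns and strand is not given in the sources used here, so counts of such genes could hold reads of their neighbours.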

How the data were processed

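Nuclei of 4 liver libraries were measured by droplet RNA-seq. The deposited values are raw UMI counts per gene and barcode, made by the authors with Cell Ranger 7.1.0 on mm10, per the submitters' processing notes. The annotation release is not given in the sources used here. Barcodes with at least 500 UMIs, 300 genes and at most 5% mitochondrial UMIs were kept. Scrublet's own threshold marked 2 barcodes in all, so the highest 0.8% by its score per 1000 barcodes were removed (3927). Nuclei were clustered (scanpy 1.11.5, igraph 0.11.9) without collagen genes, and clusters were named from marker lists. Counts were summed per library and class and tested with edgeR 4.0.16 (quasi-likelihood, TMM, filterByExpr, Benjamini-Hochberg over all genes tested, threshold 0.05), in R 4.3.3 and after a check on simulated data. DESeq2 1.42.0, other scaling, filters, doublet handling, clusterings and left-out libraries were alternatives. Named collagens are those with a mean of at least 10 CPM in a tested class, others were singled out after their values were seen, and of each pathway list up to 3 with the smallest p are named. Coordinates are from GENCODE vM21 and promoter sequences from RefSeq (GRCm38.p6). The members and lists were chosen with earlier results of these data known. The cluster 3 comparison was added after seeing the data. Confidence in low values is limited by counting error, and PCR copies are collapsed by UMI.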

Additional observations from a re-analysis of the deposited data

Results flagged for a closer look

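The age effect (log2, aged minus young, over all nuclei) differed between stellate/fibroblast-like and hepatocyte-like nuclei for 13 collagens in the edgeR test of the difference itself. It was more positive in stellate/fibroblast-like nuclei for Col1a2 by 3.96 (adjusted p = 0.00153), Col6a3 by 3.79 (0.00156), Col5a1 by 3.62 (0.00214), Col16a1 by 3.41 (0.0141), Col1a1 by 3.34 (0.0115) and Col3a1 by 3.11 (0.000799). Smaller positive differences were those of Col4a2 at 2.89 (edgeR adjusted p = 0.00112), Col4a1 at 2.73 (0.00222), Col24a1 at 2.66 (0.00135), Col14a1 at 2.35 (0.00524) and Col27a1 at 1.51 (0.0116). Col25a1 and Col18a1 were more negative, at -1.61 (edgeR adjusted p = 0.00605) and -1.55 (0.00304). The first genes listed, Col1a2 to Col3a1, had low hepatocyte-like means, from 0.433 (Col16a1) to 2.74 CPM (Col3a1). Within the stellate/fibroblast-like class, Col1a1, Col1a2, Col3a1, Col16a1, Col25a1 and Col27a1 were not called with age over all nuclei. Col1a1 had a negative log2 difference there. In nuclei low in hepatocyte RNA 0 of 30 collagens differed in edgeR, with 9 at an unadjusted p under 0.05, as were 8.68% of all genes.

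The age effect on Col27a1 in hepatocyte-like nuclei differed between the pericentral and the periportal end by -1.30 on the log2 scale (edgeR adjusted p = 0.0392).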

How the results depend on the processing

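Depth and composition limit these results: kept nuclei had medians of 918 to 3180 UMIs, several collagens rest on under 20 UMIs a library, and 2 libraries a side cannot show small differences. The number of collagens called with age in stellate/fibroblast-like nuclei was 11. It became 0 without nuclei high in hepatocyte RNA, 0 in cluster 3 alone, 0 with collagens allowed for clustering and 6 with doublets kept, and ranged from 5 (without aged 1) to 16 (without young 2) with a library left out. The 25 pathway genes called became 0 without nuclei high in hepatocyte RNA and 0 in cluster 3 alone, with a range of 18 to 44. In hepatocyte-like nuclei the count of 0 became 11 with no filter on low counts and 4 in DESeq2 (range 1 to 6). In macrophage-like nuclei 0 became 3 with no filter (range 0 to 3), and the low hepatocyte RNA setting could not be fitted there, with 11 nuclei in young 1. The endothelial-like count of 0 ranged from 0 to 4.

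Between classes, the macrophage-like count of 0 became 1 with RLE size factors, 3 with no filter, 1 with at least 1000 UMIs, 11 with collagens allowed for clustering and 8 with cluster 3 alone (range 0 to 5). Of all genes, 15.3% were called with cluster 3 alone and 6.66% to 10.1% with a library left out. Stellate/fibroblast-like against endothelial-like nuclei gave 11, and 19 with cluster 3 alone (range 9 to 12). With cluster 3 alone 32.2% of all genes were called there, and 5.26% to 8.17% with a library left out. Left-out libraries gave 14 to 16 for stellate/fibroblast-like and 3 to 6 for endothelial-like against hepatocyte-like nuclei. The shares of all genes there were 11.1% to 32.9% and 5.81% to 10.5%. Of the age effects compared between classes, 0 against endothelial-like nuclei became 1 and 13 against hepatocyte-like nuclei became 0 without nuclei high in hepatocyte RNA (ranges 0 to 10 and 8 to 21). The 7 zoned collagens ranged from 5 to 7, and 15.6% to 18.6% of all genes were zoned with a library left out. The 1 collagen with zonation by age became 2 with no filter and 0 with at least 1000 UMIs, and this count also moved with a library left out.

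Some summed levels (log2, aged over young) changed sign. The stellate/fibroblast-like basement membrane sum went from 0.35 to -0.16 without nuclei high in hepatocyte RNA and to -0.38 in cluster 3, and the fibrillar sum from 1.20 to -0.019 in cluster 3. The hepatocyte-like sum of -0.01 became 0.017 with at least 1000 UMIs (range -0.25 to 0.30). The endothelial-like sum of 0.04 became -0.012 with plain CPM, -0.026 with doublets kept and -0.068 with collagens allowed for clustering (range -0.12 to 0.18), and its other collagens, at 0.76, ranged from -0.041 to 1.25. The macrophage-like sum of 0.07 ranged from -0.24 to 0.49 and its fibrillar sum of -0.88 from -1.42 to 0.037.

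Single genes also changed sign in the age effect (log2); the cause was not tested. In cluster 3 of the stellate/fibroblast-like class these were Col1a2 (-0.93), Col3a1 (-0.34), Col4a1 (-0.52), Col4a2 (-0.71), Col5a2 (-0.35), Col6a1 (-0.44), Col8a1 (-1.25), Col16a1 (-0.80), Col18a1 (0.30), Col27a1 (0.060), Timp2 (-0.078) and Ddr2 (-0.15). Without nuclei high in hepatocyte RNA they were Col4a1 (-0.15), Col4a2 (-0.13), Col8a1 (-0.45) and Col27a1 (0.55). With collagens allowed for clustering they were Col4a5 (-0.44), Col8a1 (-0.33), Col16a1 (-0.22), Col18a1 (0.095) and Col25a1 (0.25). With at least 1000 UMIs they were Col1a1 (1.25) and Col27a1 (0.069). Col27a1, at -0.01, was also 0.036 with RLE size factors, 0.039 in DESeq2, 0.16 with equal numbers of nuclei, 0.42 without young 2 and 0.19 without aged 2. With a library left out, Col1a1 ranged from -1.33 to 1.35 (without young 2), Col4a5 from -0.40 (without aged 2) to 1.67 and Col8a1 from -0.10 (without young 1) to 2.28. In endothelial-like nuclei, leaving out aged 1 turned Col4a1 (range -0.87 to 1.68), Col4a2 (-0.64 to 1.29), Col8a1 (-0.13 to 1.62), Col18a1 (-0.66 to 0.28) and Col23a1 (-0.24 to 1.71), and leaving out young 2 turned Col18a1 (0.17). Allowing collagens for clustering turned Col4a1 (-0.028), Col4a2 (-0.24), Col8a1 (-0.0053), Col14a1 (-0.13), Col18a1 (0.41) and Col23a1 (-0.11) there. Without nuclei high in hepatocyte RNA Col4a2 was -0.027 and Col18a1 0.13, and with doublets kept Col18a1 was 0.0033.

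The labels give both ages replicate numbers 1 and 2 and nothing else that pairs libraries, and same-numbered libraries deviated with correlations across genes of -0.22 (hepatocyte-like), -0.30 (stellate/fibroblast-like), 0.02 (endothelial-like) and -0.15 (macrophage-like). With the replicate number as a block, 6 collagens and 18 pathway genes were called in stellate/fibroblast-like nuclei and 0 collagens in hepatocyte-like, endothelial-like and macrophage-like nuclei, and Col27a1 was 0.016 in stellate/fibroblast-like nuclei.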
